A study of Homo sapiens with 6 samples.

Results

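Genes by which renal carcinoma cells are commonly recognised are described here: the nephron lineage factors PAX8 and PAX2, the intermediate filament genes KRT18 and VIM, the cadherins CDH2 and CDH6, and the surface genes CD24, CD44 and ADGRG1. They are 9 of the 61541 genes listed in the deposited count tables, found by symbol, and all 9 were among the 10067 genes tested. RNA came from RCC4, an established line of clear cell renal carcinoma, in 3 untreated cultures and 3 cultures that received TNF at 25 ng/mL together with IFN-γ at 1000 U/mL, over 24 h. All 6 were grown in the same complete medium, 3 flasks made up each biological replicate, and 500 ng of poly(A)+ RNA per library was read as native RNA on a nanopore flow cell of its own. RCC4 is a single cell line, so the replicates are separate cultures and not separate tumours. The genes were chosen by their measured levels in this same comparison: CD24 and ADGRG1 for a low level in treated cells and for their values in untreated replicate 3, which stood apart from the other untreated libraries. Their differences between the groups are therefore given as a description, without a test.

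PAX2 and PAX8 are paired-box transcription factors that build the nephron in the embryo, and pathologists use PAX8 to recognise tumours of renal origin. Clear cell renal carcinoma keeps an unusual mixture of filaments and adhesion proteins for an epithelial tumour: keratin 18 with its partner keratin 8 beside the mesenchymal filament vimentin, and N-cadherin (CDH2) and kidney cadherin 6 (CDH6) in place of E-cadherin. CD24 is a small lipid-anchored glycoprotein, known on renal progenitor cells and as a ligand of the leukocyte receptor SIGLEC10; CD44 is the main receptor for hyaluronan; ADGRG1, also called GPR56, is an adhesion G protein-coupled receptor.

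Of the 9 genes, 4 lay past the threshold of edgeR's test over all genes (adjusted p under 0.05), where 8.14% of all genes did. VIM was the 1 higher in treated cells (5.58% of all genes), and CD24, ADGRG1 and PAX8 were the 3 lower (2.55%). In the same 4 genes the treated and untreated libraries did not overlap, which held for 25.9% of all genes. Because this contrast helped to choose the genes, nothing is read from these counts. The number past the threshold was 2 without untreated replicate 1, untreated replicate 2, treated replicate 1 or treated replicate 2, and 3 without treated replicate 3. CD24 and ADGRG1 remained past it in all of these fits, but they were chosen for this difference, so nothing is read from that either. The median log2 fold change of the 9 genes was -0.10, against -0.03 for all genes tested, and the range ran from -3.20 to 0.66.

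The sequences upstream of the start sites are shown for these 4 genes, since they are the members whose groups separated. RefSeq promoter windows (GRCh38.p14) were held for 7 of the 9 genes, with CDH6 and KRT18 unmatched, and gave 13 windows of 300 bases. For CD24, PAX8 and VIM the 250 upstream bases end where the deposited gene model begins, whereas the ADGRG1 model starts further upstream than its window. Each line runs 5′ to 3′ on the strand of its gene, and capitals mark matches to any of 5 short motifs searched on both strands. CD24 lies at chr6:106975628-106975877 (minus strand), ADGRG1 at chr16:57619488-57619737 (plus), PAX8 at chr2:113278922-113279171 (minus) and VIM at chr10:17227991-17228240 (plus).
CD24: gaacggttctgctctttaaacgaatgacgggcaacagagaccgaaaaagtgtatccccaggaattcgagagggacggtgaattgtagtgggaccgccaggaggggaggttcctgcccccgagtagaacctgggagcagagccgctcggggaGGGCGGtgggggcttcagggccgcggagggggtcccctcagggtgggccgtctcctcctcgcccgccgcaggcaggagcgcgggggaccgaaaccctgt
ADGRG1: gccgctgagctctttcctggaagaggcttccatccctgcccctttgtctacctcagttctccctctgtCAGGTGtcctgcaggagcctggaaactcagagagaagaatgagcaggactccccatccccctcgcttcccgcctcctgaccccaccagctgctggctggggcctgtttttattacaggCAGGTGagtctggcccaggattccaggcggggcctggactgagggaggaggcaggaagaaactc
PAX8: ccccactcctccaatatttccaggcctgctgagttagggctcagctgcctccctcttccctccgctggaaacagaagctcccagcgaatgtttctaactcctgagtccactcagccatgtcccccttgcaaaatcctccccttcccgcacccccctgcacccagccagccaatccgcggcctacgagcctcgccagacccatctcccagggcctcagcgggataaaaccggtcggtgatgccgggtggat
VIM: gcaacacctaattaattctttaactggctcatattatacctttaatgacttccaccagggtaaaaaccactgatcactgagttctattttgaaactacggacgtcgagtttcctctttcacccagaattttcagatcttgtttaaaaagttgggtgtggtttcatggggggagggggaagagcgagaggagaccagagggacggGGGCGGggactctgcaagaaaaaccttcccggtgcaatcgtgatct

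The 5 motifs were the interferon element (GAAA, any 2 bases, GAAA), an NF-kappaB-like element (GGG, any 2 bases, TTTCC), the HIF core ACGTG, the GC box GGGCGG and the SNAI and ZEB E-box CAGGTG. The ADGRG1 window printed above holds CAGGTG with its first base at -182 and at -64 from the RefSeq start, a motif present in 20.6% of all windows. CAGGTG was also in another ADGRG1 window and in 1 further window each of CD24 and PAX2. The printed CD24 and VIM windows each have a GC box, at -99 and -46, as do another CD24 window and windows of CDH2 and CD44, and 45.0% of all windows have one. In the PAX8 window none of the 5 sets of letters occurs. The interferon element (3.57% of all windows) and the NF-kappaB-like element (1.91%) were in none of the 13 windows, while ACGTG (21.4%) was in windows of PAX2, CD44 and VIM, in the last at position 8, past the printed stretch. These are matches of letters; no binding was measured here, and the start site in use in RCC4 was not read from gene counts.

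Library totals ran from 3626000 to 4406296 counts, and a count of 3, the limit that a count of 0 allows, was between 0.674 and 0.863 CPM (counts scaled by library total and TMM factor). Replicates differed by more than counting noise, with chi-square per degree of freedom from 3.79 for untreated replicates 1 and 2 to 27.7 for untreated replicates 1 and 3. Among the 6744 genes averaging 10 CPM or more, untreated replicate 3 was at least 2-fold above the mean of the other 2 untreated libraries on the log2 scale in 610 (9.05%) and at least 2-fold below it in 233 (3.45%). All 15 markers on the list for renal carcinoma epithelium had counts. They include the members PAX8, PAX2, VIM, KRT18, CDH2, CDH6 and CD24, and also MME, with 1 count in untreated replicate 1. Among defining markers of other cell types, PTPRC, CD3E, PECAM1, VWF, PDGFRA and DCN had 0 counts in all 6 libraries. Summed leukocyte markers (11 of 16 at 0) gave 2.94 to 6.52 CPM in untreated and 1.80 to 3.16 CPM in treated libraries, and endothelial markers (8 of 11 at 0) gave 0.772 to 1.36 and 0.898 to 5.68 CPM. Fibroblast and pericyte markers (6 of 10 at 0) summed to 55.3 to 74.2 and 27.5 to 49.2 CPM, most of it COL1A1. Other markers on these 3 lists also had counts. The macrophage receptor gene CSF1R had 22, 21 and 13 untreated and 5, 5 and 4 treated counts. PDGFRB had 36, 40 and 49 untreated and 9, 12 and 10 treated counts. The endothelial marker ROBO4 had 20 counts in treated replicate 3, of 41 over the 6 libraries. The epithelial cadherin gene CDH1 also had 0 counts in every library.

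**Figure D1:**
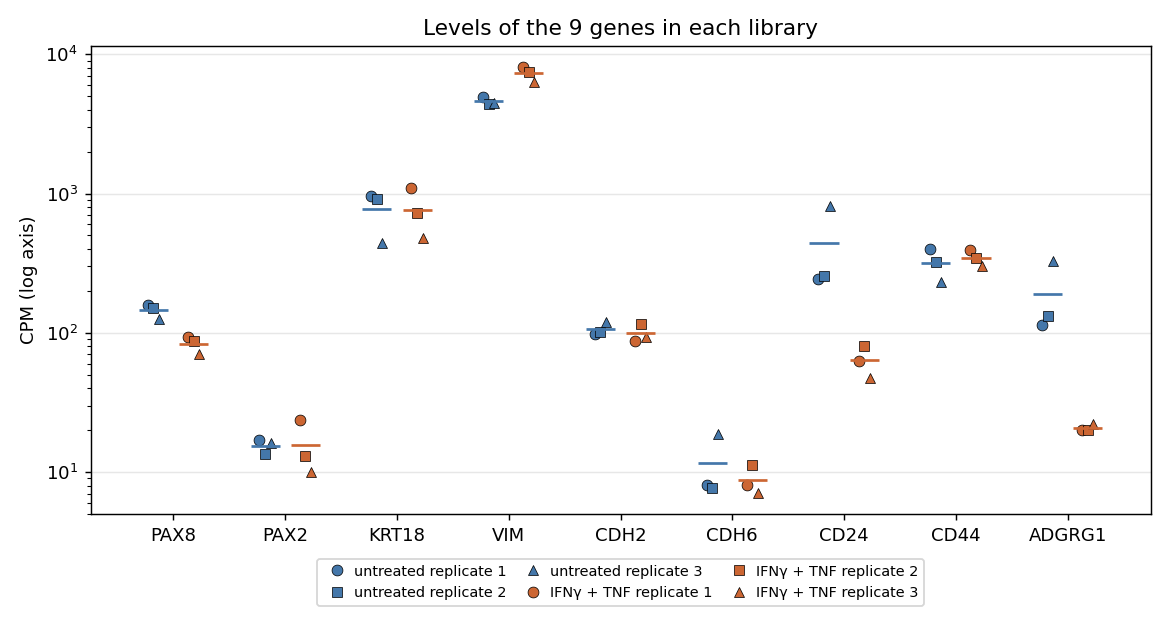
Level of each of the 9 genes in each of the 6 libraries, in CPM on a log axis; symbols mark replicates, colours mark groups and bars mark group means. Untreated replicate 3 lies above the other untreated libraries for CD24 (819 CPM), ADGRG1 (327 CPM) and CDH6 (18.8 CPM) and below them for KRT18 (442 CPM), while treated libraries of CD24 and ADGRG1 lie below every untreated one.

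PAX8 (ENSG00000125618; GRCh38 chromosome 2, 113215997 to 113278921, minus strand) had 158, 150.0 and 126 CPM in untreated replicates 1, 2 and 3 and 93.2, 87.1 and 71.0 CPM in treated replicates 1, 2 and 3. Every treated library was below every untreated one, and in both groups replicate 3 held the lowest value. The means were 145 ± 16.6 and 83.8 ± 11.5 CPM (SD, n = 3 each), and the log2 fold change was -0.79 (SE 0.19). Over the 13 alternative fits the log2 fold change stayed between -0.89 and -0.68. In a bulk library, fewer cells with a transcript and less of it per cell cannot be told apart.

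PAX2 (ENSG00000075891; chromosome 10, 100735396 to 100829944, plus strand), the other paired-box factor, was scarce. Its untreated libraries held 16.9, 13.4 and 16.1 CPM, from 65, 52 and 71 counts. Treated libraries had 23.6, 13.03 and 9.94 CPM, from 82, 58 and 35 counts. The treated values lay on both sides of the untreated ones, and their spread was the wider (SD 7.16 against 1.85 CPM). The log2 fold change was 0.00 (SE 0.32), and leaving out 1 library at a time moved it between -0.42 and 0.24. Within single libraries, where no scaling enters, PAX8 had 9.32, 11.2 and 7.86 reads for each PAX2 read in untreated cells and 3.95, 6.69 and 7.14 in treated cells, so that these ratios did not overlap either. The gap between the nearest of them, 7.86 and 7.14, is small beside the range within each group.

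Other nephron transcription factors were read from a list of 32, of which 13 were tested: 2 were called higher, 2 lower and 9 were not past the threshold, with a median log2 fold change of -0.01. ZNF395, a gene overexpressed in clear cell renal carcinoma, fell by 1.25 on the log2 scale (SE 0.27, edgeR adjusted p 0.0208). FOXC1, a forkhead factor of the developing kidney, rose from 17.1 ± 1.67 to 31.9 ± 4.02 CPM (log2 fold change 0.90, SE 0.21, edgeR adjusted p 0.0327). Neither call held in every fit. ZNF395 was not past the threshold without any 1 of the treated replicates (edgeR adjusted p from 0.0591 to 0.0973). For FOXC1 the value was 0.0713 with library totals alone and from 0.0573 to 0.158 without any 1 library other than untreated replicate 3. HNF4A and GATA3 were among 10 genes of this list with 0 counts.

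Of 9 further genes grouped with the PAX family, 7, among them PAX3, PAX5 and PAX6, had 0 counts in all libraries. PAXIP1, which encodes a protein that binds PAX factors, was the sole one tested, with 11.3 ± 1.99 CPM untreated and 13.4 ± 1.98 CPM treated, and was not past the threshold (edgeR adjusted p 0.7). PAX8-AS1, which overlaps PAX8 exons on the opposite strand and is counted apart from it by strand, held 37 counts over 6 libraries. In a list of 36 genes for the working nephron, such as transporters and brush-border enzymes, 8 were tested and none was called by edgeR (median log2 fold change -0.16), and 16, among them AQP1, LRP2 and UMOD, had 0 counts. The highest means of CPM over the 6 libraries were those of CRYAB, at 343 CPM untreated and 340.4 CPM treated, and HAVCR1, the kidney injury molecule, at 22.03 and 20.9 CPM. On this list 5 of the 8 tested genes were at least 2-fold higher in untreated replicate 3 than in the other untreated libraries, among them MME with 1, 17 and 48 untreated counts. The share was 9.05% over the genes averaging 10 CPM or more, a level that MME did not reach (means 5.16 and 2.23 CPM). Lists described below had 5 of 12 (epithelial junction), 6 of 16 (CD44 partners) and 7 of 26 (surface markers) such genes, and the keratin and filament list 0 of 12. Nothing particular to the nephron list is read from its count.

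KRT18 (ENSG00000111057; chromosome 12, 52948871 to 52952906, plus strand), the acidic keratin of simple epithelia, had 961, 915 and 442 CPM in untreated and 1093, 725 and 478 CPM in treated libraries. Replicate 3 was the lowest in each group, by a wide margin in untreated cells, and the groups overlapped throughout. The means of 773 ± 288 and 765 ± 309 CPM (SD, n = 3 each) differed far less than the replicates of either group (log2 fold change -0.01, SE 0.35). Leaving out 1 library at a time gave values between -0.36 and 0.24. Among the 67 listed KRT18 pseudogenes only 4 counts were recorded over all libraries, against 17907 for KRT18 itself.

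VIM (ENSG00000026025; chromosome 10, 17228241 to 17237593, plus strand), the filament of mesenchymal cells, was the most abundant of the 9 genes. It stood at 4952, 4389 and 4435 CPM in untreated libraries and at 8076, 7475 and 6297 CPM in treated ones. No treated library came within the untreated range. The means of 4592 ± 313 and 7283 ± 905 CPM (SD, n = 3 each) had a ratio of 1.59 and a log2 fold change of 0.66 (SE 0.15). Over the 13 alternatives that value ran from 0.56, with library totals alone, to 0.77. For each KRT18 read there were 5.15, 4.797 and 10.0 VIM reads in untreated libraries and 7.39, 10.3 and 13.2 in treated libraries. These ratios overlapped, because untreated replicate 3, with few KRT18 reads, exceeded treated replicate 1.

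The other keratins and filament genes numbered 29, of which 12 were tested, with 0 called higher, 3 lower and 9 not past the threshold (median log2 fold change -0.15; 1995 of all 10067 genes had an unadjusted p under 0.05). KRT8, the partner with which keratin 18 pairs, had 1342 ± 373 and 1671 ± 440 CPM and was not past the threshold (log2 fold change 0.32, SE 0.26, edgeR adjusted p 0.608). KRT19, another keratin of simple epithelia, fell from 365 ± 42.8 to 173 ± 36.0 CPM (log2 fold change -1.08, SE 0.20, edgeR adjusted p 0.00995). KRT80 fell from 305 ± 92.2 to 88.9 ± 28.2 CPM (log2 fold change -1.78, SE 0.31, edgeR adjusted p 0.00746). It was past the threshold in all 13 alternatives. SYNM, for the filament protein synemin, fell by 1.60 on the log2 scale (edgeR adjusted p 0.0364). KRT19 was not past the threshold without untreated replicate 2, treated replicate 2 or treated replicate 3 (edgeR adjusted p from 0.0636 to 0.069), and SYNM without any 1 of the 6 libraries (0.0544 to 0.146). As for KRT18, the lowest value of each group was in replicate 3 for KRT8, KRT10, KRT34, KRT80, KRT81, LMNA and LMNB2. That did not hold for KRT7, KRT19, LMNB1, PLEC and SYNM. The median of the tested genes in untreated replicate 3 against the other 2 untreated libraries was -0.58 (log2). The hair keratin KRT81 had 2835, 2878 and 457 CPM in untreated and 849.9, 709.9 and 86.3 CPM in treated libraries. KRT81 was not past the threshold (log2 fold change -1.91, SE 0.82, edgeR adjusted p 0.236), except without untreated replicate 3 (0.0213), with every gene with at least 1 count tested (1.77e-14) and with the replicate number as a block (1.38e-10). Its groups overlapped in CPM, and the latter fits called 1328 and 1513 genes against 819. The small values are therefore not read as stronger evidence for KRT81.

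CDH2 (ENSG00000170558; chromosome 18, 27932879 to 28177946, minus strand), which encodes N-cadherin, had 98.8, 101 and 121 CPM in untreated and 88.0, 116 and 93.7 CPM in treated libraries. The groups overlapped, and the means of 107 ± 12.0 and 99.3 ± 14.8 CPM were -0.10 apart in log2 fold change (SE 0.19). CDH6 (ENSG00000113361; chromosome 5, 31193686 to 31329146, plus strand) was the scarcest member, with 31, 30 and 83 untreated counts and 28, 50 and 25 treated counts. As CPM these were 8.08, 7.72 and 18.8 against 8.06, 11.2 and 7.10. Untreated replicate 3 alone stood out, and the log2 fold change of -0.39 (SE 0.40) became 0.15 without it. Exons of DUX4L51 cover 8.91% of the exonic bases of CDH6 on the same strand, where reads would be left uncounted. CDH2 reads per CDH6 read were 12.2, 13.03 and 6.42 in untreated and 10.9, 10.3 and 13.2 in treated libraries, again with untreated replicate 3 apart.

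Among 35 other cadherins, catenins and proteins that bind or cleave cadherins, 14 were tested and edgeR called 0 of them, with a median log2 fold change of -0.26. CTNNA1 (alpha-catenin) and VCL (vinculin), which tie cadherins to actin, were the most abundant at 252 and 152 CPM untreated and 323 and 143 CPM treated. CDH16, the kidney-specific cadherin, had 19, 30 and 81 untreated counts and 14, 27 and 36 treated counts (log2 fold change -0.62, SE 0.52, edgeR adjusted p 0.619).

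A list of 33 epithelial junction and identity genes had 12 tested, with 1 called higher, 2 lower and 9 not past the threshold (median log2 fold change -0.12). CLDN2, the claudin of the leaky proximal tubule, fell from 134 ± 23.8 to 55.7 ± 7.11 CPM (log2 fold change -1.27, SE 0.20, edgeR adjusted p 0.00482). CLDN1 rose from 7.17 ± 3.09 to 25.5 ± 8.68 CPM (log2 fold change 1.82, SE 0.40, edgeR adjusted p 0.0224). CRB3, a polarity gene, fell by 1.05 on the log2 scale (edgeR adjusted p 0.0182), and CLDN4, the other abundant gene of the list, had 126 and 139 CPM (edgeR adjusted p 0.888). CLDN2 passed in all 13 alternatives, CLDN1 failed without untreated replicate 2, treated replicate 2 or treated replicate 3 (edgeR adjusted p from 0.0693 to 0.105), and CRB3 without any 1 library other than untreated replicate 3 (0.0596 to 0.106). EPCAM, a surface protein of most epithelia, was low, with 24, 31 and 126 untreated counts and 17, 62 and 36 treated counts (edgeR adjusted p 0.72).

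Of 27 genes of the mesenchymal transition, 19 were tested, with 1 called higher, 2 lower and 16 not past the threshold, and their median log2 fold change was -0.39. SNAI1, a repressor of CDH1, fell from 25.4 ± 7.24 to 5.87 ± 1.65 CPM (log2 fold change -2.10, SE 0.32, edgeR adjusted p 0.00406). SNAI1 passed in all 13 alternatives. TPM1, a tropomyosin, fell by 0.79 on the log2 scale (edgeR adjusted p 0.0223), and LOX, a collagen cross-linking enzyme, rose by 1.37 (edgeR adjusted p 0.0146). LOX had an edgeR adjusted p of 0.0777 without untreated replicate 2 and 0.05 without treated replicate 2, and TPM1 was not past the threshold without any 1 library other than untreated replicate 3 (0.0523 to 0.116). TAGLN and TGFBI, the genes of the list with the highest mean CPM over the 6 libraries, had log2 fold changes of -0.57 and 0.08 and were not past the threshold (edgeR adjusted p 0.574 and 0.889), although TAGLN was with the replicate number as a block (0.00486).

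CD24 (ENSG00000272398; chromosome 6, 106969831 to 106975627, minus strand) had 939, 988 and 3622 untreated counts and 219, 358 and 168 treated counts. As CPM, the untreated values were 245, 254 and 819 and the treated values 63.0, 80.4 and 47.7. Replicates 1 and 2 of the untreated group were close to each other, replicate 3 was 3.28-fold above their geometric mean, and all treated libraries were lower than all untreated ones. That distance put CD24 above 98.3% of the 6744 genes with at least 10 CPM, a place that restates the choice of CD24 for this library. The means of 439 ± 329 and 63.7 ± 16.4 CPM (SD, n = 3 each) were 6.90-fold apart, and the log2 fold change was -2.79 (SE 0.48). Without untreated replicate 3 the untreated mean was 249.5 CPM and the log2 fold change -1.98, the smallest size among the 13 alternatives. The 4 listed CD24 pseudogenes held 5 counts over all libraries, against 6294 for CD24.

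ADGRG1 (ENSG00000205336; chromosome 16, 57610652 to 57665580, plus strand) had 435, 512 and 1448 untreated counts and 70, 90 and 78 treated counts. Its CPM were 113, 132 and 327 in untreated and 20.1, 20.2 and 22.15 in treated libraries. The treated libraries were nearly equal, with a coefficient of variation of 5.47%, whereas that of the untreated libraries was 62.1% because replicate 3 was 2.68-fold above the other 2. Such a gap to replicate 3 exceeded that of 96.6% of genes, and ADGRG1 too was chosen for it. Group means of 191 ± 119 and 20.8 ± 1.14 CPM (SD, n = 3 each) were 9.16-fold apart; the log2 fold change was -3.20 (SE 0.41), and -2.56 without untreated replicate 3. CD24 reads per ADGRG1 read were 2.16, 1.93 and 2.501 in untreated libraries, so the ratio of these genes changed little in the library in which both were high. In treated libraries it was 3.13, 3.98 and 2.15, overlapping the untreated range.

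CD44 (ENSG00000026508; chromosome 11, 35138882 to 35232402, plus strand) had 398, 325 and 230.0 CPM in untreated and 391, 344 and 299.6 CPM in treated libraries. All treated values lay inside the untreated range, and the log2 fold change was 0.12 (SE 0.22). It was the surface gene with the opposite deviation in untreated replicate 3, at 0.64 times the other 2. CD44 reads per CD24 read were 1.62, 1.28 and 0.281 in untreated libraries and 6.20, 4.28 and 6.28 in treated ones. Every treated ratio was above every untreated ratio, and the lowest belonged to untreated replicate 3. Since CD24 was chosen for both features, this ratio restates that choice. Counts per gene sum over the CD44 splice forms, which were not analysed here.

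**Figure D2:**
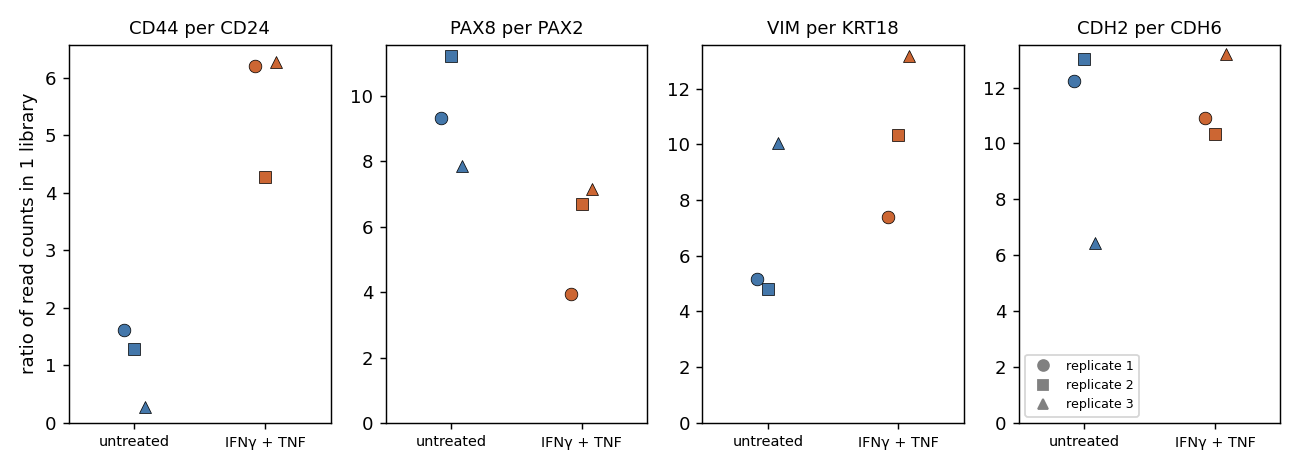
Ratio of the read counts of 2 genes within each library, which no scaling between libraries affects; the axes start at 0, symbols mark replicates and colours mark groups. CD44 per CD24 separates the groups (0.281 to 1.62 against 4.28 to 6.28), as does PAX8 per PAX2 by a narrow gap (7.86 against 7.14), while VIM per KRT18 and CDH2 per CDH6 overlap. CD24 was chosen for its low treated level, which its ratio restates.

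The partners of CD24 and ADGRG1 were taken from a list of 18, of which 11 were tested, with 2 called higher, 0 lower and 9 not past the threshold (median log2 fold change 0.16). TGM2, a transglutaminase of the matrix that binds ADGRG1, rose from 34.9 ± 17.7 to 515 ± 81.5 CPM (log2 fold change 3.89, SE 0.38, edgeR adjusted p 0.000301). Its libraries had 51.6, 36.8 and 16.3 CPM untreated and 524, 429 and 592 CPM treated. The lowest TGM2 value was in untreated replicate 3, the library with the highest ADGRG1 value. ADGRG1 was chosen for its value in that 1 library, which deviated in many genes, so no relation between TGM2 and ADGRG1 is read from this. LYN, a Src-family kinase reported to associate with CD24, rose from 21.5 ± 1.20 to 64.0 ± 7.48 CPM (log2 fold change 1.57, SE 0.19, edgeR adjusted p 0.00104). Both passed in all 13 alternatives. RHOA and the tetraspanin gene CD81, partners of ADGRG1 signalling, were the most abundant of the list, with log2 fold changes of 0.09 and 0.06 (edgeR adjusted p 0.859 and 0.916). COL3A1, another ADGRG1 ligand, and the CD24 receptors SIGLEC10 and SELP had 0 counts in every library.

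Other adhesion G protein-coupled receptors numbered 31, of which 16 had 0 counts and 6 were tested, with 1 called higher, 1 lower and 4 not past the threshold (median log2 fold change -0.10). ADGRA3 fell from 8.34 ± 2.89 to 1.53 ± 0.450 CPM (log2 fold change -2.41, SE 0.43, edgeR adjusted p 0.00803), from 29, 23 and 51 counts to 5, 9 and 4. ADGRE5, also called CD97, rose from 1.61 ± 0.850 to 7.66 ± 1.60 CPM (log2 fold change 2.244, SE 0.46, edgeR adjusted p 0.0176), from 9, 7 and 3 counts to 29, 26 and 31. Both ADGRA3 and ADGRE5 met the filter for testing only through the group in which they were high. Their calls therefore rest on few counts in the other group and are given as a description. ADGRE5 was not past the threshold without untreated replicate 2, treated replicate 1 or treated replicate 3 (edgeR adjusted p from 0.061 to 0.0836), whereas ADGRA3 passed in all 13 alternatives. ADGRG6, from the same subfamily as ADGRG1, had 8, 23 and 66 untreated counts and 17, 27 and 19 treated counts (edgeR adjusted p 0.755). CELSR1, a cadherin-bearing receptor of planar polarity and the most abundant of the 31, had 30.0 and 36.7 CPM (edgeR adjusted p 0.578).

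For CD44, a list of 24 ligands and partners had 16 tested, with 2 called higher, 0 lower and 14 not past the threshold (median log2 fold change 0.14). CD74, the invariant chain that forms a signalling complex with CD44, rose from 153 ± 37.1 to 1217 ± 39.6 CPM (log2 fold change 2.99, SE 0.21, edgeR adjusted p 3.79e-05). LAYN, for the hyaluronan receptor layilin, rose from 145 ± 43.0 to 289 ± 55.2 CPM (log2 fold change 0.99, SE 0.26, edgeR adjusted p 0.0477), a call that did not hold without any 1 library other than untreated replicate 3 (0.0647 to 0.148). MSN (moesin), which links the CD44 tail to actin, had 536 and 684.5 CPM and was not past the threshold (edgeR adjusted p 0.26). SPP1, for the CD44 ligand osteopontin, had 390, 680 and 3265 untreated counts and 931, 2169 and 3737 treated counts, so that replicate 3 was the highest of each group.

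Other surface genes used to mark renal carcinoma cells numbered 35, of which 26 were tested, with 4 called higher, 1 lower and 21 not past the threshold (median log2 fold change 0.11). CD47, like CD24 a surface signal that restrains phagocytes, rose from 40.7 ± 13.3 to 281 ± 73.5 CPM (log2 fold change 2.78, SE 0.30, edgeR adjusted p 0.000508). In untreated libraries it stood at 39.1, 28.3 and 54.7 CPM and in treated ones at 196, 325 and 322 CPM. ITGA6, an integrin laminin receptor, rose by 2.46 on the log2 scale (SE 0.41, edgeR adjusted p 0.00623), as did NT5E, the ectonucleotidase CD73, by 1.61 (SE 0.27, edgeR adjusted p 0.00609). The tetraspanin gene CD82 rose by 1.11 (edgeR adjusted p 0.0331), and SLC3A2, named after its value was seen and known as the heavy chain of amino acid transporters, fell by 1.02 on the log2 scale (edgeR adjusted p 0.00553). All but CD82 passed in all 13 alternatives; CD82 did not without untreated replicate 2, treated replicate 1 or treated replicate 3 (edgeR adjusted p from 0.106 to 0.14). CA9, the carbonic anhydrase that marks clear cell tumours, had 38.5 ± 7.49 and 37.98 ± 6.96 CPM (log2 fold change -0.02, SE 0.23, edgeR adjusted p 0.977). CD63 and BSG, the most abundant of the list, had 1209 and 929 CPM untreated and 1471 and 995 CPM treated and were not past the threshold (edgeR adjusted p 0.566 and 0.837).

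**Figure D3:**
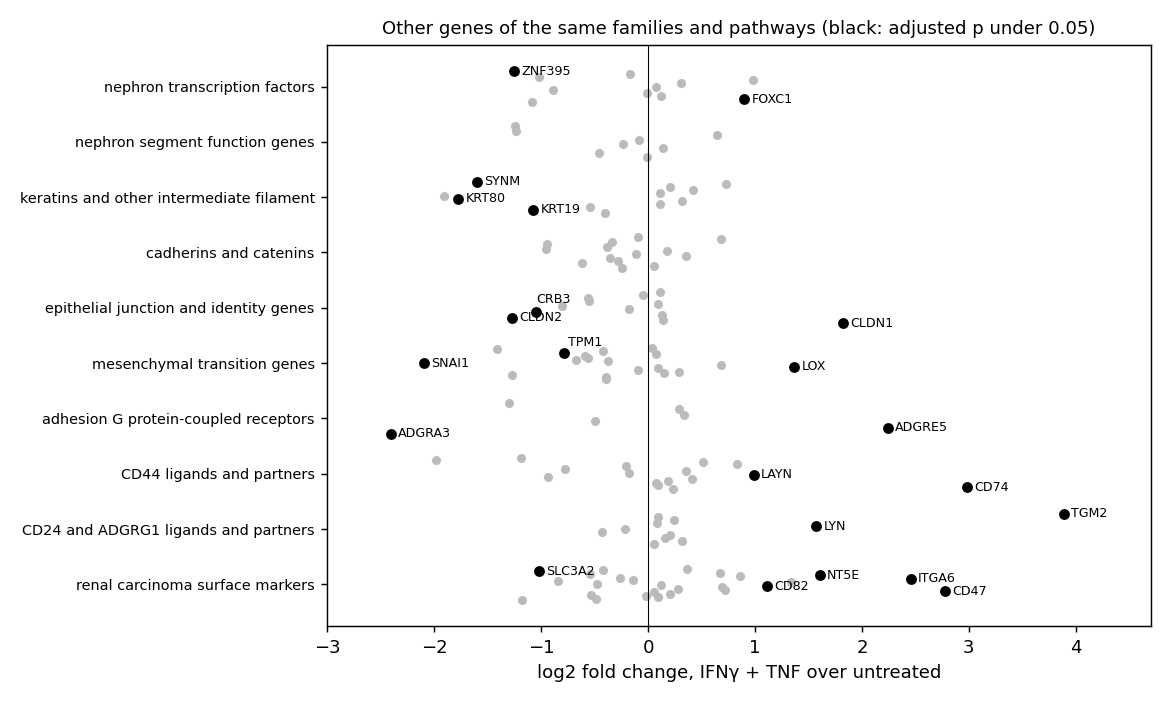
Log2 fold change of treated over untreated cells for the tested genes of 10 of the 11 lists (the PAX family, with 1 tested gene, and 2 of the 13 tested nephron factors are left out); black points with names are past an edgeR adjusted p of 0.05 over all genes and grey points are not. Called genes lie on both sides of 0 in 5 of the lists, and TGM2 at 3.89 and ADGRA3 at -2.41 are the extremes among them.

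**Figure D4:**
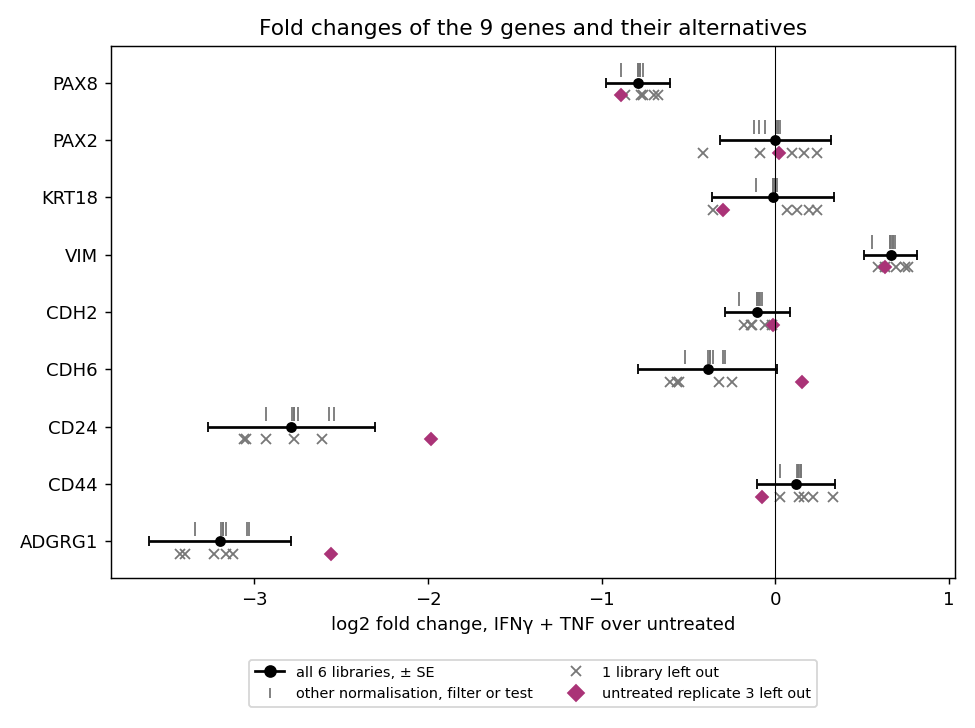
Log2 fold change of the 9 genes with its SE (black), under other normalisations, filters and tests (ticks) and with 1 library left out (crosses; diamonds for untreated replicate 3). CD24 moves from -2.79 to -1.98 and ADGRG1 from -3.20 to -2.56 without untreated replicate 3, and CDH6 moves from -0.39 to 0.15.

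Levels of different genes were set side by side as CPM per kilobase of exonic length, and then as CPM without length. In untreated cells the order was VIM (887 ± 60.4), KRT18 (252 ± 93.7), CD24 (142 ± 106), CD44 (31.8 ± 8.41), ADGRG1 (21.2 ± 13.2), PAX8 (19.6 ± 2.25), CDH2 (12.4 ± 1.40), PAX2 (2.35 ± 0.282) and CDH6 (0.926 ± 0.504), as mean ± SD over 3 libraries. The library ranges of KRT18 and CD24, of CD44 and ADGRG1, and of ADGRG1 and PAX8 overlapped, so these neighbours in level per kilobase did not differ beyond their spread. On the same scale, the treated order was VIM (1407 ± 175), KRT18 (249.4 ± 101), CD44 (34.5 ± 4.56), CD24 (20.6 ± 5.28), CDH2 (11.6 ± 1.73), PAX8 (11.4 ± 1.56), PAX2 (2.36 ± 1.09), ADGRG1 (2.31 ± 0.127) and CDH6 (0.707 ± 0.174). There the neighbours that overlapped were CDH2 with PAX8 and PAX2 with ADGRG1. By level per kilobase ADGRG1 went from rank 1827 to rank 6349 among the 19158 genes with a count, CD24 from 391 to 1956, PAX8 from 1938 to 2903, and VIM from 80 to 49. By CPM without length, ADGRG1 went from rank 807 to 4871, CD24 from 324 to 2413, PAX8 from 1082 to 1940 and VIM from 22 to 10. Each native read stands for 1 RNA molecule, so CPM without length is the more direct scale between genes here. The order per kilobase also reflects the exonic length, which was 3096 bases for CD24 and 9011 for ADGRG1. The untreated order was the same on both scales. By treated mean CPM, CD24 (63.7) stood below CDH2 (99.3) and PAX8 (83.8), and ADGRG1 (20.8) stood above PAX2 (15.5). The treated libraries of CD24 and PAX8, and those of ADGRG1 and PAX2, overlapped in CPM.

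**Figure D5:**
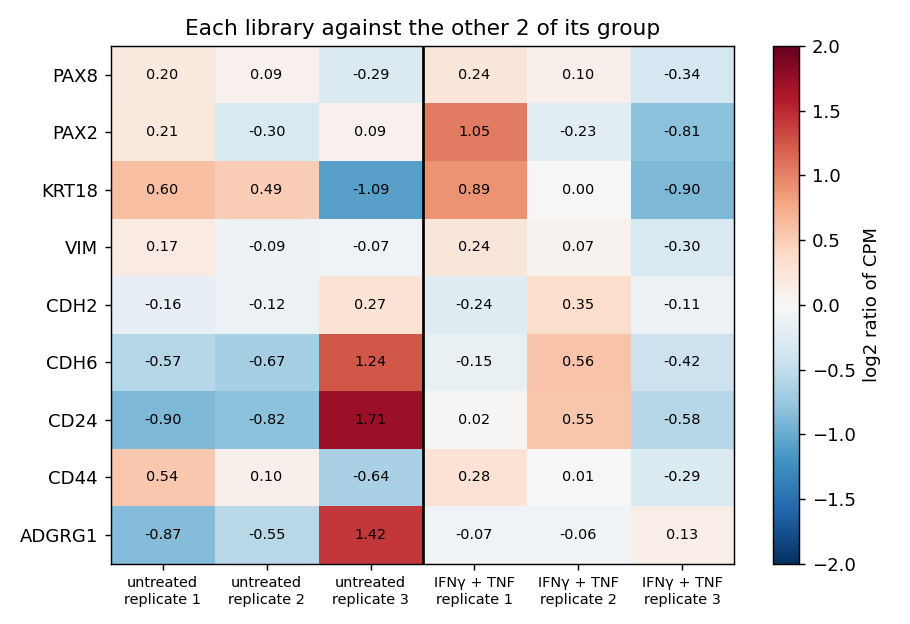
Log2 ratio of each library to the geometric mean of the other 2 libraries of its group, for the 9 genes; red is higher and blue lower. Untreated replicate 3 holds the highest values, 1.71 for CD24, 1.42 for ADGRG1 and 1.24 for CDH6, together with the lowest one, -1.09 for KRT18.

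The members varied within the groups in different ways. In untreated replicate 3, CD24, ADGRG1 and CDH6 were 3.28, 2.68 and 2.36 times the other 2 libraries, and KRT18 was 0.471 times. CDH2, PAX2, VIM and PAX8 stayed between 0.82 and 1.21 times. Among treated libraries the widest ranges were in PAX2, at 2.37-fold from lowest to highest, and KRT18, at 2.28-fold. After the group means were taken off, CD24 and CDH6 moved together over the 6 libraries (Pearson r = 0.988) and so did PAX8 and KRT18 (r = 0.966), while CD44 and ADGRG1 moved oppositely (r = -0.907). Over so few libraries, which share their scaling factors, these values are a description of the plot of library deviations. Those with CD24 and ADGRG1 also lean on untreated replicate 3, for which these genes were chosen.

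Genes with the profile most like each member were sought among 6743 other genes by Pearson r of log2 CPM over the same 6 libraries. For CD24 they were SLC44A3 (r = 0.997), CREB3L2 (r = 0.99) and PRSS23 (r = 0.989). CREB3L2, a transcription factor of the secretory pathway, had a log2 fold change of -1.31. ADGRG1 was most like CAMK2N1 (r = 0.991), CRISPLD2 (r = 0.989) and RNF185 (r = 0.989), of which CRISPLD2, a secreted protein gene, had a log2 fold change of -2.76. PAX8 was nearest to PDCD7, CHCHD4 and GLTP (r from 0.996 to 0.998) and VIM to UST-AS2, BAZ2A and LZTS1 (r from 0.992 to 0.997). KRT18 was nearest to EPN1, NDE1 and ZNRD2 (r from 0.992 to 0.995). For PAX2, CDH2, CDH6 and CD44 the 3 nearest genes had r from 0.962 to 0.999. With the group means taken off, CD24 was nearest to FRG1, SUPT3H and CHMP3, and ADGRG1 to EXT2, PCYOX1 and ASAP1. With 6 points and this many genes searched, the values are given with no test. For CD24 and ADGRG1 the search also used the values for which they were chosen.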

How the data were processed

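RCC4 RNA was measured in 3 untreated and 3 treated libraries. Each deposited table holds raw counts, from featureCounts 2.0.1 run in long-read mode over exons of Ensembl release 105 (GRCh38) with strand-specific counting, per the file headers; minimap2 2.24, SAMtools 1.16 and featureCounts 2.0.0 are listed in the submitters' processing notes. The option for multi-mapping reads was not set in the file headers. Symbols came from a gene name table (61369 of 61541 identifiers) or GENCODE 29 (159). Sample titles gave group and replicate; nothing beyond the word for biological replicate describes how cultures were separated. The alignments named in the file headers of all 6 libraries carry the word dmso, which the labels do not mention; whether both groups received this solvent is not given in the sources used here.

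Counts were tested with edgeR 4.0.16 in R 4.3.3 (quasi-likelihood F test, TMM, filterByExpr, Benjamini-Hochberg adjustment over all genes, threshold 0.05, group as the sole term). Each SE was obtained from the fold change and its F statistic (size over the root of F). On simulated counts for 9803 genes with 200 changed 4-fold, this recovered 189 with 11 false calls. The simulated counts were drawn separately for each gene, without deviations shared across a library, and changes were placed only in better-counted genes. These figures therefore do not describe smaller changes or libraries that deviate in many genes, as untreated replicate 3 did. The members and the 11 lists were chosen with earlier results of these data known. These lists leave out the 9 genes, whereas the marker list for renal carcinoma epithelium does not. Genes named are all members, up to 4 called genes and the 2 most abundant of each list, fixed partners, and the nearest profiles. PTPRC, CD3E, PECAM1, VWF, PDGFRA, DCN, CSF1R, PDGFRB, ROBO4, MME, SPP1 and other genes named for 0 counts were singled out after their values were seen. So were the filament genes named for their values in replicate 3. Some genes of the nephron factor list and a motif are not reported here. Alternatives were DESeq2 1.42.0 size factors and Wald test, library totals, 2 filters, limma 3.58.1 voom, the replicate block and each library left out.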

Additional observations from a re-analysis of the deposited data

How the results depend on the processing

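Of 117 values of the 9 genes under 13 alternatives, 115 moved by less than the spread between replicates. The exceptions were the log2 fold changes of CD24 and ADGRG1 without untreated replicate 3. Over the 6 fits that left out 1 library CD24 ran from -3.06 to -1.98 and ADGRG1 from -3.43 to -2.56. Leaving out 1 library shifts a group mean by only part of the spread between replicates, so few values could exceed this limit. In the same fits PAX2 ran from -0.42 to 0.24 and KRT18 from -0.36 to 0.24. CDH6 ran from -0.61 to 0.15 and CD44 from -0.08 to 0.33, so the sign of these genes changed. The count of genes called, 819, was 1328 with every gene with at least 1 count tested and 1513 with the replicate number as a block, and leaving out 1 library gave 455 (without treated replicate 3) at the lowest and 1178 (without untreated replicate 3) at the highest; the cause was not tested. Same-numbered libraries did not all deviate together (r = 0.625, 0.0135 and 0.364 for numbers 1, 2 and 3, with untreated replicate 2 nearer to treated replicate 1, r = 0.217), so the numbers were not taken as pairs; with the replicate block CD24 was at -2.54 and ADGRG1 at -3.04. Ordered by CPM without length, treated CD24 took place 6, CDH2 4, PAX8 5, PAX2 8 and ADGRG1 7, against 4, 5, 6, 7 and 8 per kilobase. On library totals alone the deviation of VIM in untreated replicate 3 was 0.09 and not -0.07 (log2), and the median of all genes moved to -0.13. Calls within lists moved by over 1.5 times in some fits: lower calls among mesenchymal genes were 2, and 7 with the replicate block, higher calls among surface markers 4 and 9, lower calls among CD44 partners 0 and 3, and both directions of the nephron factors went from 2 to 0 in fits without 1 library. Of 585 values of named list genes, 22 had the other sign under an alternative, in genes called neither with all libraries nor in that fit. Among the 9 genes the fewest counts stood behind CDH6 and PAX2, with 247 and 363 over the 6 libraries.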

Other observations

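Some genes that marked the line stood outside the groups above. NNMT, a methyltransferase abundant in clear cell renal carcinoma, rose from 994 to 3103 CPM (log2 fold change 1.64, SE 0.19, edgeR adjusted p 0.000855). NDUFA4L2, a gene induced in tumours without VHL function, had 382, 386 and 816 untreated counts and 549, 600 and 1174 treated counts, highest in replicate 3 of each group, and was not past the threshold (log2 fold change 0.70, edgeR adjusted p 0.363). On the marker lists of other cells, the receptor genes PDGFRB and CSF1R were called lower, with log2 fold changes of -1.91 and -1.90 (edgeR adjusted p 0.0049 and 0.0314), from 36, 40 and 49 untreated counts to 9, 12 and 10 for PDGFRB. CSF1R went from 22, 21 and 13 counts to 5, 5 and 4, and met the filter for testing only through the untreated group.

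MET, the receptor of hepatocyte growth factor, had 74, 125 and 304 untreated counts and 146, 420 and 290 treated counts. It was not past the threshold with all libraries (log2 fold change 0.86, edgeR adjusted p 0.353) and was past it without untreated replicate 3 (0.0131), with every gene with at least 1 count tested (0.00807) and with the replicate number as a block (0.00359). The groups overlapped for MET, and the latter fits called more genes throughout, so their values are not read as stronger evidence. The genes of this section were looked at after their values were seen.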
